A study of Homo sapiens with 9 samples.

Results

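MCF10AT1 was set against MCF10A and MCF10Ca1a to describe the genes for which it lay outside both other lines, and not between them. For each gene, MCF10AT1 was contrasted with the mean of the 2 line means of MCF10A and MCF10Ca1a, and the gene was called apart when its 3 MCF10AT1 values in CPM (read counts scaled to a common library total, after TMM normalisation) all lay above, or all lay below, all 6 other values. Of the 17910 genes with enough counts to test, among 62666 in the deposited table, 5206 were apart (29.1%), 2745 above (15.3%) and 2461 below (13.7%). The non-overlap itself chose these genes, so their fold changes and adjusted p-values describe them and add no separate support. The same rule gave 7266 genes for MCF10A (40.6%) and 11782 for MCF10Ca1a (65.8%), so MCF10AT1 had the fewest genes outside the range of both other lines.

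Polyadenylated RNA from 3 libraries of each of 3 human mammary epithelial cell lines was sequenced, 9 libraries in all, in a study of how expression changes as breast cancer develops. MCF10A is an immortalised, non-tumorigenic line. MCF10AT1 is a premalignant derivative of MCF10A that carries an activated HRAS, and MCF10Ca1a is a malignant line derived further along the same lineage. All 3 lines grew in DMEM/F12 that held cholera toxin at 100 ng/mL, hydrocortisone at 500 ng/mL, human epidermal growth factor (EGF) at 20 ng/mL, insulin at 10 µg/mL, L-glutamine at 2 mM and NaHCO3 at 14 mM. Horse serum was 2.5% for MCF10AT1 and 5% for both other lines, so serum and cell line cannot be told apart in any comparison of MCF10AT1 given here. Each group is a single cell line, and nothing in the labels says that the 3 libraries of a line came from separate cultures. The p-values then measure only the spread between these libraries, which may be technical.

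Interferons signal from their receptors through JAK and STAT proteins, which switch on interferon-stimulated genes and, with the coactivator NLRC5, the class I HLA genes that present peptides on the cell surface. The NF-kB transcription factors drive cytokines, chemokines and acute phase proteins in epithelial cells, together with their own inhibitors. Activated RAS signals through the MAP kinase cascade to immediate early genes such as FOS and EGR1 and to feedback inhibitors such as the Sprouty proteins and DUSP6.

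Library totals were 62898802 to 68105821 counts in MCF10AT1, 64226331 to 69508814 in MCF10A and 32930465 to 35242985 in MCF10Ca1a. All 12 markers of mammary epithelial lines were detected, with a summed level of 10053 to 10721 CPM in MCF10AT1, 10224 to 13140 in MCF10A and 12791 to 13584 in MCF10Ca1a. HRAS gave 99.1, 99.6 and 94.3 CPM in MCF10AT1, 43.0, 40.8 and 39.1 in MCF10A and 146, 141 and 149 in MCF10Ca1a. The deposited gene counts therefore put HRAS in MCF10AT1 above MCF10A and below MCF10Ca1a (log2 change 1.25 and -0.57), without showing which allele the reads came from. Of 10 leukocyte markers, 6 (PTPRC, CD3E, CD3D, MS4A1 and LYZ among them) were at 3 counts or fewer in every library, as were 4 of 10 fibroblast markers (COL1A2, COL3A1, THY1 and DPT) and 4 of 8 endothelial markers (VWF, CDH5, CLDN5 and EMCN).

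Most genes that were apart lay close to a neighbouring line. Against the mean of the other lines, the quasi-likelihood test of edgeR, adjusted by Benjamini and Hochberg, called 12307 genes in MCF10AT1 (68.7%), 6685 higher (37.3%) and 5622 lower (31.4%). Of these, 7134 were not apart, and in 4485 the MCF10AT1 mean lay between the means of MCF10A and MCF10Ca1a. Conversely, 5173 of the 5206 genes apart were called. The log2 change to the nearer line had a median size of 0.44 (quartiles 0.26 and 0.79), and 3331 genes (64.0%) were within 1.5-fold of that line. MCF10A was the nearer line for 3525 genes apart (67.7%). A smaller set of 975 genes (5.44%) was apart and at least 2-fold from both lines, 506 above (2.83%) and 469 below (2.62%). At least 8-fold from both lines were 71 genes above and 75 below. On the TPM scale the balance turned: 1611 genes were apart above and 3420 below, and limma on log2(TPM + 1) called 3458 higher and 6679 lower. The median log2 change of all genes was 0.04 in CPM and -0.16 in TPM, so a small change holds only relative to that shift.

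A call against the mean did not always place MCF10AT1 outside both lines, and the mitosis genes are an example. All 25 mitosis genes tested were called higher against the mean of the other lines, and none was apart. CCNB1, the cyclin that drives entry into mitosis, gave 403, 407 and 383 CPM in MCF10AT1, 433, 466 and 488 in MCF10A and 37.8, 38.4 and 39.0 in MCF10Ca1a. MKI67, a marker of cycling cells, gave 267, 254 and 312 CPM in MCF10AT1, 396, 366 and 351 in MCF10A and 112, 104 and 112 in MCF10Ca1a. For both genes MCF10AT1 lay between the other lines, with no overlap. The list had a median log2 change of -0.46 against MCF10A and 1.94 against MCF10Ca1a.

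The border of the rule is thin. HARBI1 was just inside it, with 4.51, 4.77 and 3.88 CPM in MCF10AT1, 3.80, 3.80 and 3.88 in MCF10A and 2.77, 3.30 and 2.51 in MCF10Ca1a, a gap of 0.0128% of its mean. LDAH, a lipid droplet hydrolase, was just outside, because it was at 0 CPM in all 3 MCF10AT1 libraries and at 0, 0.0892 and 0 in MCF10Ca1a, against 25.2, 27.0 and 27.7 in MCF10A. The ZCCHC4 gene, picked after its values were seen as the nearest outside with no library at 0, missed by a gap of -0.0071%.

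The genes furthest above both lines were close to off elsewhere. AGMAT, annotated as agmatinase (chr1:15572353-15585110, minus strand, GRCh38 in GENCODE 29), gave 11.01, 10.9 and 9.54 CPM in MCF10AT1 and no count in any other library. That is at least 231-fold higher than MCF10A and at least 122-fold higher than MCF10Ca1a, with the floor set at 3 counts per library. None of the 19 other genes tested within 500 kb of AGMAT was apart above, and 6 were apart below. C3orf14 (chr3:62318973-62336213, plus strand) gave 25.2, 23.9 and 27.1 CPM in MCF10AT1, 0.0312, 0.0155 and 0.0143 in MCF10A and 0 in MCF10Ca1a, at least 296-fold higher than in MCF10Ca1a. PTPRG-AS1 (chr3:62260865-62369330), a long noncoding RNA that spans C3orf14 and the end of PTPRG on the opposite strand, gave 1.95, 1.81 and 1.85 CPM and 0 in the other 6 libraries. Whether the counting used strand is not given in the sources used here, so reads of C3orf14 and of this antisense gene may not be fully separated. PTPRG itself, a receptor tyrosine phosphatase, was not apart: it gave 50.6, 50.5 and 53.7 CPM in MCF10AT1, between 89.2, 80.8 and 71.8 in MCF10A and 39.9, 41.8 and 42.2 in MCF10Ca1a.

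Receptor, enzyme and secreted protein genes followed. IL1RL2, the receptor for interleukin 36, gave 2.01, 1.66 and 1.58 CPM in MCF10AT1, 0.0156, 0.0155 and 0 in MCF10A and 0 in MCF10Ca1a. Its neighbour IL1R2, the decoy receptor for interleukin 1, was named after its values were seen and gave 1.53, 1.58 and 1.31 CPM in MCF10AT1, 0.374, 0.324 and 0.473 in MCF10A and 0.615, 1.07 and 1.07 in MCF10Ca1a. WFDC2, a secreted whey acidic protein also called HE4, gave 4.36, 3.86 and 3.996 CPM in MCF10AT1, 0.0624, 0.0464 and 0.0430 in MCF10A and 0 in MCF10Ca1a. In all 3 genes the MCF10AT1 libraries lay above the other 6 with no overlap.

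Enzymes made up the rest of the 8 genes named above both lines. TH, tyrosine hydroxylase of catecholamine synthesis, gave 1.45, 1.71 and 1.53 CPM in MCF10AT1, 0.0312, 0.0464 and 0 in MCF10A and 0, 0.0297 and 0 in MCF10Ca1a. AS3MT, the arsenite methyltransferase, gave 1.59, 2.04 and 1.53 CPM in MCF10AT1, 0, 0 and 0.0430 in MCF10A and 0 in MCF10Ca1a, and its reads may include a transcript that runs through from the gene upstream. GDA, guanine deaminase of purine breakdown, was the most strongly counted of the enzymes, at 86.2, 86.5 and 86.6 CPM in MCF10AT1 against 1.81, 2.27 and 2.25 in MCF10A and 0.112, 0.357 and 0.113 in MCF10Ca1a. Its log2 change against the mean of the others was 7.08 ± 0.0928 (SE, edgeR, adjusted p = 1.05e-14). GDA lies on chromosome 9, where 35.6% of the genes tested were apart above, and 2 of its 5 neighbours tested within 500 kb were too.

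**Figure D1:**
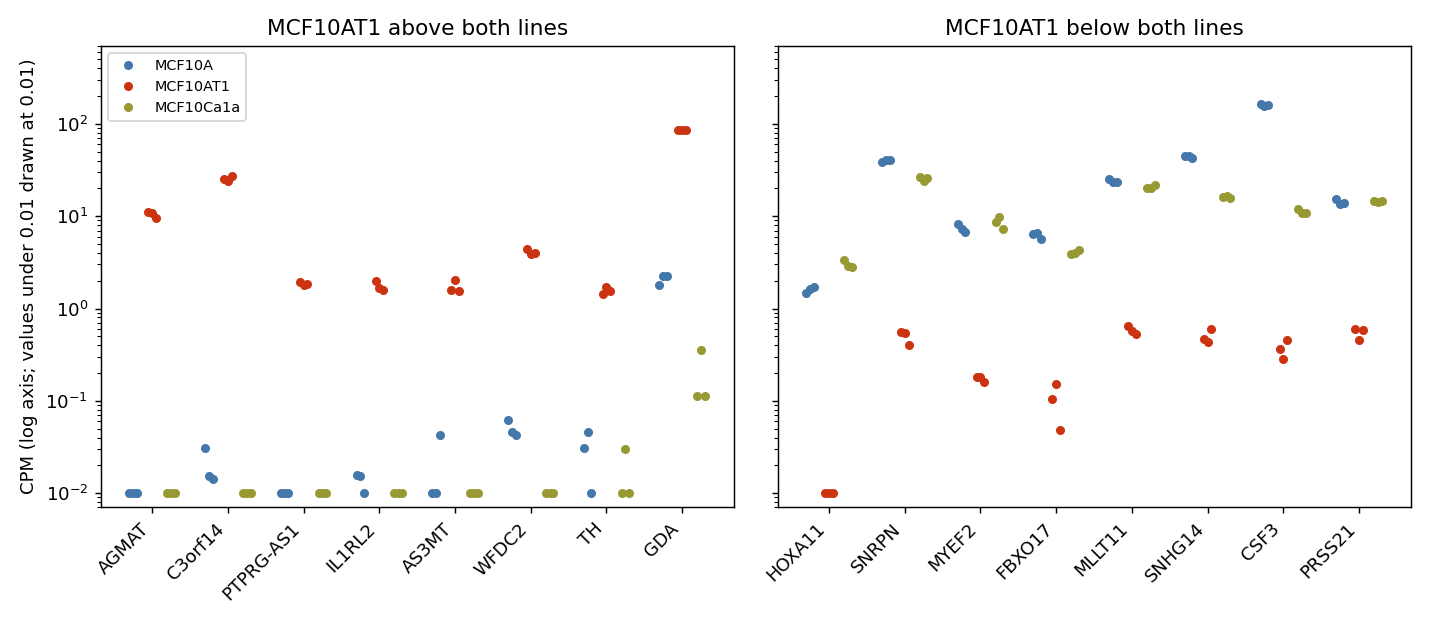
Each point is a library, with CPM on a log axis and values under 0.01 drawn at 0.01, for the 8 genes above and the 8 below with the largest change to the nearer line. The genes were chosen among those with a symbol and a mean of at least 100 counts. The MCF10AT1 libraries stand on the far side of all 6 others for each gene, and the 3 libraries of a line lie close together wherever a gene was well counted.

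In the whole table, 52 genes had 10 or more counts in every MCF10AT1 library and 3 or fewer in every other, and 14 genes showed the reverse. The same counts were 160 and 61 for MCF10A and 111 and 280 for MCF10Ca1a, whose libraries held fewer reads. AGMAT, C3orf14 and PTPRG-AS1 led the genes detected in MCF10AT1 alone. Another was HLA-DPB1, a class II HLA chain named after its values were seen, at 0.735, 0.905 and 0.677 CPM in MCF10AT1, 0 in MCF10A and 0, 0.0297 and 0.0282 in MCF10Ca1a. HOXA11, SLC12A7 and SNURF led the genes with a symbol that were undetected in MCF10AT1 alone. SLC12A7, a potassium and chloride cotransporter, gave 0.0300, 0.0302 and 0 CPM in MCF10AT1, 0.982, 0.757 and 0.888 in MCF10A and 1.06, 0.594 and 0.846 in MCF10Ca1a. The labels name no molecular identifiers, so reads are not taken as separate molecules, and the floors and bounds hold for counting error alone.

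HOXA11, a homeobox gene of the distal HOXA cluster (chr7:27181510-27185223), had no count in MCF10AT1, 1.48, 1.62 and 1.69 CPM in MCF10A and 3.33, 2.91 and 2.85 in MCF10Ca1a. It was at least 34.6-fold lower than in MCF10A and at least 65.6-fold lower than in MCF10Ca1a. Its antisense neighbour HOXA11-AS was also at 0 in MCF10AT1, against 0.218, 0.263 and 0.358 CPM in MCF10A and 4.78, 5.11 and 3.41 in MCF10Ca1a, and reads of the pair may not be separated. Most of the cluster was not apart. Of 17 neighbours tested within 500 kb, 4 were apart below and 1 above, and HOXA10 and HOXA7 were not apart. Over the 23 HOX genes tested, 11 were called higher and 9 lower (6 and 8 with limma on log2(TPM + 1)), with 1 apart above (HOXC8) and 5 below. In TPM none was apart above and 8 were below, and on thinned counts none was above and 4 were below. HOXB4 was among the 5, at 0 CPM in MCF10AT1, 4.15, 3.66 and 3.37 in MCF10A and 0.0279, 0.0297 and 0.0282 in MCF10Ca1a, where it had 1 count in each library, under the floor of 3, so that only its difference from MCF10A is measurable.

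An imprinted locus on chromosome 15 held several genes below both lines. SNRPN, a paternally expressed small nuclear ribonucleoprotein gene (chr15:24823637-24978723), gave 0.555, 0.543 and 0.403 CPM in MCF10AT1, 38.6, 40.7 and 41.1 in MCF10A and 26.7, 24.2 and 26.1 in MCF10Ca1a. SNHG14, the long transcript that follows it and hosts small nucleolar RNAs (chr15:24978583-25419462), gave 0.465, 0.438 and 0.596 CPM in MCF10AT1, 44.7, 44.4 and 42.9 in MCF10A and 16.1, 16.4 and 15.6 in MCF10Ca1a. SNURF, which shares the start of the SNRPN transcript, had no count in MCF10AT1, against 0.951, 1.05 and 1.28 CPM in MCF10A and 0.559, 0.654 and 1.07 in MCF10Ca1a. All 3 were apart below. The log2 change against the mean of the others was -5.99 ± 0.0903 for SNRPN (SE, edgeR, adjusted p = 1.67e-14) and -5.73 ± 0.0839 for SNHG14 (adjusted p = 1.38e-14). These transcripts overlap on 1 strand, so they are not independent measurements. UBE3A, the ubiquitin ligase that lies opposite the far end of SNHG14, was named after its values were seen and gave 120.4, 124 and 120.0 CPM in MCF10AT1, 107, 101 and 100.5 in MCF10A and 92.7, 93.7 and 91.9 in MCF10Ca1a. Its small rise (log2 change 0.31) was not called with limma on log2(TPM + 1), where it was 0.01 (adjusted p = 0.911). NDN and MAGEL2, other paternally expressed genes of the region, had no count in any of the 9 libraries.

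The other genes named below both lines were of diverse kinds. CSF3, the granulocyte growth factor, fell from 165, 158 and 159 CPM in MCF10A and 11.9, 10.9 and 10.9 in MCF10Ca1a to 0.360, 0.287 and 0.451 in MCF10AT1. PRSS21, a membrane-anchored serine protease also called testisin, gave 0.600, 0.453 and 0.580 CPM in MCF10AT1, 15.4, 13.6 and 13.9 in MCF10A and 14.5, 14.3 and 14.5 in MCF10Ca1a. MLLT11 gave 0.645, 0.573 and 0.532 CPM in MCF10AT1, 25.4, 23.3 and 23.3 in MCF10A and 20.1, 20.2 and 21.5 in MCF10Ca1a. For PRSS21 and MLLT11 the other 2 lines lay close together and MCF10AT1 alone stood far below. MYEF2, a nucleic acid binding protein, gave 0.180, 0.181 and 0.161 CPM in MCF10AT1, 8.19, 7.25 and 6.72 in MCF10A and 8.72, 9.69 and 7.36 in MCF10Ca1a. FBXO17, an F-box protein, gave 0.105, 0.151 and 0.0483 CPM in MCF10AT1, 6.36, 6.54 and 5.72 in MCF10A and 3.88, 3.98 and 4.29 in MCF10Ca1a. The log2 change to the nearer line was between -5.39 (MYEF2) and -4.71 (PRSS21) for these 5 genes.

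Functional lists differed widely in how many of their members were apart. Interferon-stimulated, antigen presentation, NF-kB feedback, cytokine and acute phase genes leaned below, and sterol, immediate early, MAP kinase and p53 genes leaned above, by their members apart. The lists share some members, and the counts describe them beside the 15.3% apart above and 13.7% below over all genes tested, and the 37.3% that rose and 31.4% that fell against the mean. Genes described as apart are so in CPM; of those named, INSIG1, ACSL3, EPHA4, ITGA6, KRT5, CNFN, HOXC8, HARBI1 and UBE3A, all above, were not apart in TPM, where the balance over all genes turned to below, while B2M and CXCL8 were apart below in TPM alone.

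**Figure D2:**
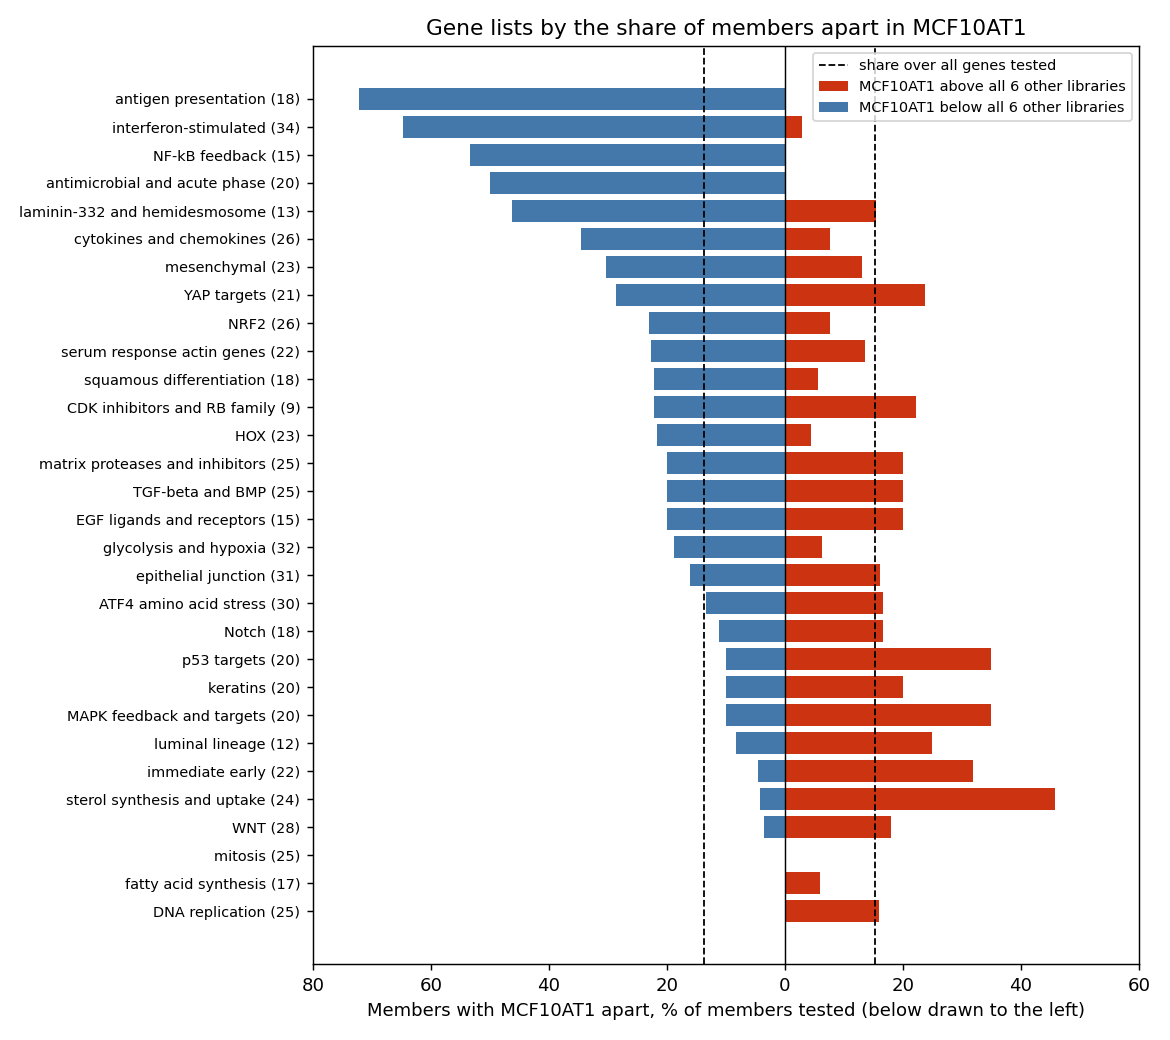
Bars give the percentage of tested members (number in brackets) of each functional list with MCF10AT1 above (right) or below (left) all 6 other libraries, and the dashed lines give the shares over all genes tested. Antigen presentation reaches 72.2% below and interferon-stimulated genes 64.7%, while sterol synthesis and uptake reaches 45.8% above.

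Most interferon-stimulated genes were lower in MCF10AT1 than in both other lines. Of 34 tested, 27 fell and 3 rose against the mean of the others, and 22 were apart below and 1 above. Against MCF10A 28 were called lower and 4 higher, and against MCF10Ca1a 24 and 3. The median log2 change was -0.88, against 0.04 over all genes, and was -0.66 against MCF10A and -1.10 against MCF10Ca1a. BST2, or tetherin, which holds enveloped viruses at the cell surface, had the largest change to the nearer line, and its promoter is shown for the 2 interferon elements it holds. IFIT1, which binds viral RNA, and IFI44 are shown as other members apart below with such an element, chosen after their values were seen. The element searched was GAAA, any 2 bases and GAAA again, on both strands, overlapping matches included, in windows from 250 bases before to 50 after the start, from RefSeq on GRCh38.p14. Capitals mark the matches. BST2 is at chr19:17405581-17405880 on the minus strand, IFIT1 at chr10:89392373-89392672 and IFI44 at chr1:78649539-78649838, both on the plus strand.
BST2: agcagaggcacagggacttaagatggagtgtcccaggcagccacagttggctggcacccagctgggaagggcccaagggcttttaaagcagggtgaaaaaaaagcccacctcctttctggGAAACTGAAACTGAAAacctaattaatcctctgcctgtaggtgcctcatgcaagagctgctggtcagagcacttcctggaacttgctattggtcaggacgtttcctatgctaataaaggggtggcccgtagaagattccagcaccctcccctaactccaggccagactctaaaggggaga
IFIT1: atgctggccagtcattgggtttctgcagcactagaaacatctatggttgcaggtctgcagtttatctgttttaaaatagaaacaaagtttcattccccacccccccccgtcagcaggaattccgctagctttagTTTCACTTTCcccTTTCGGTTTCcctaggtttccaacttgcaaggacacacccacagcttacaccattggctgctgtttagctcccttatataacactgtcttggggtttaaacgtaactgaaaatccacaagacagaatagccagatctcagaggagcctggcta
IFI44: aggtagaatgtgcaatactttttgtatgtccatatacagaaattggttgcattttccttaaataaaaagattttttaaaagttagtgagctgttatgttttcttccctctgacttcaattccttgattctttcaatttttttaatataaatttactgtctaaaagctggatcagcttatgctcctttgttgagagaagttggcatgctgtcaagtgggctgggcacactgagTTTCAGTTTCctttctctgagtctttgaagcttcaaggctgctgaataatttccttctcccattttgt

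Of the 22 interferon-stimulated genes apart below, 18 had a promoter in the table and 12 of these (66.7%) held the element. Over the whole list it was 17 of 28 (60.7%), over the 11970 promoters of genes tested 2.92%, and over all 27305 promoters 3.65%. Among all genes apart below, 71 of 1865 promoters (3.81%) held it, and among those apart above 53 of 2028 (2.61%). A match is a description of the letters and not a binding site.

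BST2 gave 3.75, 3.91 and 4.11 CPM in MCF10AT1, 39.5, 40.1 and 39.9 in MCF10A and 81.9, 80.3 and 83.6 in MCF10Ca1a. All 3 MCF10AT1 libraries lay far below the others, and BST2 fell by 3.34 ± 0.0560 (SE) on the log2 scale against MCF10A and by 4.39 ± 0.0568 against MCF10Ca1a (edgeR, adjusted p = 1.89e-14 and 2.99e-15). BISPR, the noncoding RNA transcribed away from the BST2 promoter, was also apart below, with a mean of 0.546 CPM in MCF10AT1 and 2.59 in MCF10A. IFI44 gave 1.32, 1.03 and 0.918 CPM in MCF10AT1, 4.77, 5.31 and 6.12 in MCF10A and 8.91, 9.01 and 8.66 in MCF10Ca1a. IFIT1 gave 0.825, 0.694 and 0.870 CPM in MCF10AT1, 2.26, 1.98 and 2.44 in MCF10A and 0.950, 1.25 and 1.21 in MCF10Ca1a, with its lowest MCF10Ca1a library just above its highest MCF10AT1 library. UBE2L6, the enzyme that conjugates ISG15 and is no member of the list, was named after its values were seen and gave 1.36, 1.22 and 1.22 CPM in MCF10AT1, 15.2, 15.2 and 15.4 in MCF10A and 19.4, 19.0 and 21.6 in MCF10Ca1a. ISG15, the ubiquitin-like protein itself, gave 1.33, 1.83 and 1.29 CPM in MCF10AT1, 2.53, 2.596 and 2.59 in MCF10A and 15.7, 15.7 and 15.01 in MCF10Ca1a, with MCF10AT1 nearer to MCF10A and far below MCF10Ca1a.

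IRF1, a transcription factor of the pathway, was not apart: its 17.4, 17.2 and 15.7 CPM in MCF10AT1 overlapped the 17.8, 16.9 and 17.1 of MCF10A, and MCF10Ca1a stood at 63.3, 60.2 and 63.4. MX1, a GTPase that blocks viruses, did not pass the test (log2 change 0.37, adjusted p = 0.0747), with 0.975, 1.12 and 1.26 CPM in MCF10AT1, 0.624, 0.633 and 0.774 in MCF10A and 1.40, 0.832 and 1.04 in MCF10Ca1a. Without MCF10A replicate 3 or MCF10Ca1a replicate 1 the MX1 call passed as higher (log2 change 0.43 and 0.48). SAMD9 was the member apart above, at 66.9, 67.1 and 61.6 CPM in MCF10AT1, 50.7, 51.1 and 50.7 in MCF10A and 44.2, 46.5 and 45.8 in MCF10Ca1a.

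Antigen presentation genes moved in the same direction. Of 18 tested, 17 fell against the mean of the others and none rose, and 13 were apart below and none above, with a median log2 change of -0.79. HLA-B, a class I heavy chain, gave 56.6, 56.3 and 51.7 CPM in MCF10AT1, 185, 178 and 162 in MCF10A and 341, 331 and 345 in MCF10Ca1a. HLA-C gave 156, 159.8 and 143 CPM in MCF10AT1, 241, 226 and 213 in MCF10A and 307, 299 and 317 in MCF10Ca1a. For both genes all MCF10AT1 libraries lay below all others. HLA-B fell by 2.15 ± 0.0580 (SE) on the log2 scale against the mean of the others (edgeR, adjusted p = 2.44e-12). Class I genes are alike and differ between alleles, so the split of reads among them is uncertain.

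NLRC5, the class I coactivator, gave 5.83, 5.87 and 6.70 CPM in MCF10AT1, 10.9, 10.4 and 9.93 in MCF10A and 11.8, 13.4 and 13.9 in MCF10Ca1a, and was apart below. ERAP1, which trims peptides for class I, gave 17.3, 17.0 and 16.8 CPM in MCF10AT1, 39.2, 35.7 and 32.8 in MCF10A and 39.4, 41.6 and 40.1 in MCF10Ca1a, likewise apart. TAP1, the peptide transporter, was not apart, since its 40.7, 43.8 and 38.3 CPM in MCF10AT1 overlapped the 43.9, 39.8 and 33.9 of MCF10A below the 128, 124 and 133 of MCF10Ca1a. B2M, the shared light chain, gave 624, 649 and 697 CPM in MCF10AT1, 685, 807 and 896 in MCF10A and 706, 713 and 703 in MCF10Ca1a, and overlapped MCF10A. Its small fall (log2 change -0.19, edgeR, adjusted p = 0.0309) lost the call under 9 alternatives. Among them were the runs without MCF10A replicate 2, MCF10AT1 replicate 1 or 2, or any 1 MCF10Ca1a library. The 46 genes tested within 500 kb of HLA-B were apart above and below equally often, 6 and 6, with the stress genes MICA and MICB among those above. The leukocyte markers, summed, were at 10.4 to 11.3 CPM in MCF10AT1, 29.1 to 36.8 in MCF10A and 43.3 to 47.1 in MCF10Ca1a. Of these CD68 was apart below, at 4.29, 4.24 and 3.59 CPM in MCF10AT1, 17.0, 14.9 and 12.4 in MCF10A and 40.8, 40.6 and 44.3 in MCF10Ca1a, while the defining markers PTPRC, CD3E and LYZ were at or near 0 in every library.

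**Figure D3:**
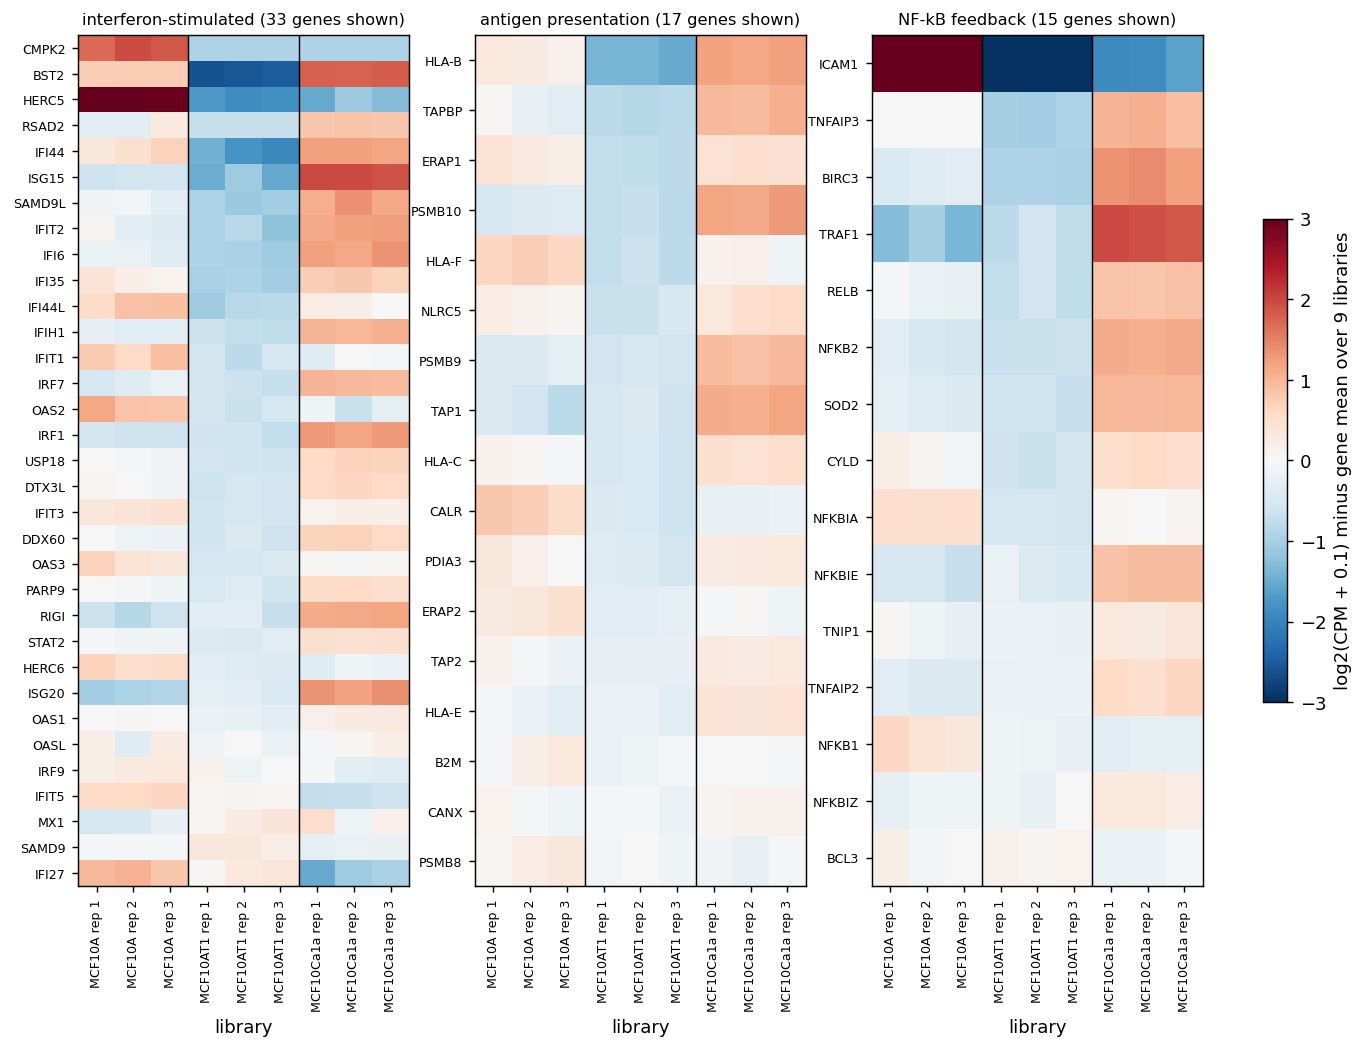
Colour gives log2(CPM + 0.1) minus the gene's mean over 9 libraries (limits -3 and 3) for interferon-stimulated, antigen presentation and NF-kB feedback genes, with libraries in columns. The 3 middle columns, MCF10AT1, are blue for most of the genes, and BST2, HLA-B and ICAM1 are among the darkest.

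NF-kB feedback genes fell against the mean of the other lines, though not all against each line. Of 15 tested, 14 fell and 1 (BCL3) rose, a rise that lost its call under 10 alternatives, and 8 were apart below and none above, with a median log2 change of -0.93. Against MCF10A 9 were called lower and 3 (NFKBIE, TNFAIP2 and TRAF1) higher, and against MCF10Ca1a 13 and 1. Most of the distance was to MCF10Ca1a, with a median of -0.26 against MCF10A and -1.29 against MCF10Ca1a. The inhibitor NFKBIA gave 58.6, 59.8 and 57.9 CPM in MCF10AT1, 119.9, 119 and 121 in MCF10A and 88.1, 84.6 and 89.6 in MCF10Ca1a. TNFAIP3, the deubiquitinase A20 that shuts the pathway off, gave 22.4, 21.7 and 23.5 CPM in MCF10AT1, 45.02, 44.3 and 44.9 in MCF10A and 91.6, 94.0 and 84.7 in MCF10Ca1a. ICAM1, an adhesion molecule for leukocytes, gave 0.0150, 0.0151 and 0.0161 CPM in MCF10AT1 and 0.140, 0.149 and 0.197 in MCF10Ca1a, both low, against 27.2, 23.9 and 21.7 in MCF10A.

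Cytokine and acute phase genes held some of the largest falls. Of 26 cytokine and chemokine genes tested, 17 fell and 5 rose, with 9 apart below and 2 above. Of 20 antimicrobial and acute phase genes, 17 fell and 2 rose, with 10 apart below and none above, and the median log2 change was -1.93. Promoters of 2 genes, HLA-B of antigen presentation and the cytokine IL32, are shown for the NF-kB element they hold. The element searched was GGGRNWYYCC (R is A or G, N any base, W is A or T, Y is C or T). Both strands were searched, overlapping matches were included, and capitals mark the match. HLA-B is at chr6:31357130-31357429 on the minus strand and IL32 at chr16:3065153-3065452 on the plus strand.
HLA-B: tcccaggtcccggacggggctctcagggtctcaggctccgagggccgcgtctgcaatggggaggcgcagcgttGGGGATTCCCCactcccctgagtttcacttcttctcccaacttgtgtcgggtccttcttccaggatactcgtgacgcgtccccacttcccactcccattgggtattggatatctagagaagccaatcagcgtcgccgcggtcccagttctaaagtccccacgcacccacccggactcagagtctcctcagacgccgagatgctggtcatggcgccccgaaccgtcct
IL32: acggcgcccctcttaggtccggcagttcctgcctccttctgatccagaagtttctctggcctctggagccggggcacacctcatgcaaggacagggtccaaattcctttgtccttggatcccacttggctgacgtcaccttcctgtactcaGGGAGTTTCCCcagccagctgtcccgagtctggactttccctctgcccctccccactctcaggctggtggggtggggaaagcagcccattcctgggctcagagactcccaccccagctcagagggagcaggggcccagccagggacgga

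The NF-kB element was in 6 of 14 antigen presentation promoters (42.9%), 6 of 13 NF-kB feedback promoters (46.2%), 8 of 19 cytokine promoters (42.1%) and 2 of 12 antimicrobial and acute phase promoters (16.7%). Over the 11970 promoters of genes tested it was 6.57%, and over all 27305 promoters 5.72%. Among members apart below it was in 4 of 10, 3 of 7, 4 of 7 and 0 of 4 promoters of these lists. Over all genes apart below it was 6.92%, and above 6.07%. IL32, a cytokine of epithelial and immune cells, gave 1.005, 0.996 and 0.934 CPM in MCF10AT1, 19.1, 18.8 and 19.1 in MCF10A and 18.0, 17.2 and 17.9 in MCF10Ca1a. The other 2 lines were alike in IL32, and MCF10AT1 fell by 4.22 ± 0.0705 (SE) on the log2 scale against their mean (edgeR, adjusted p = 2.56e-14).

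The interleukin 1 genes shared this direction. IL1B gave 10.0, 10.3 and 9.31 CPM in MCF10AT1, 33.2, 35.4 and 36.4 in MCF10A and 70.9, 74.3 and 75.2 in MCF10Ca1a. IL1A gave 54.3, 55.4 and 52.0 CPM in MCF10AT1, 119, 137 and 142 in MCF10A and 139, 141 and 137 in MCF10Ca1a. IL1RN, the antagonist that blocks their receptor, moved the other way, at 5.17, 4.90 and 4.54 CPM in MCF10AT1, 1.40, 1.19 and 1.003 in MCF10A and 0.503, 0.505 and 0.367 in MCF10Ca1a. All 3 genes were apart. IL6 was the other cytokine apart above, at 3.85, 3.61 and 3.96 CPM in MCF10AT1, 0.686, 0.309 and 0.774 in MCF10A and 1.51, 0.951 and 1.66 in MCF10Ca1a. CXCL8, a neutrophil attractant, was not apart, since its 43.2, 45.4 and 52.0 CPM in MCF10AT1 overlapped the 42.7, 51.7 and 59.4 of MCF10A.

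Complement and acute phase genes were among those apart below. C3, the central complement component, gave 183, 179 and 177 CPM in MCF10AT1, 711, 575 and 513 in MCF10A and 1361, 1305 and 1394 in MCF10Ca1a. CFB, complement factor B, gave 3.00, 2.85 and 3.17 CPM in MCF10AT1, 20.1, 16.7 and 14.2 in MCF10A and 13.7, 14.7 and 14.9 in MCF10Ca1a. In both genes all 3 MCF10AT1 libraries lay below the other 6. SAA1, an acute phase apolipoprotein, gave 15.3, 14.5 and 13.5 CPM in MCF10AT1, 193, 193 and 191 in MCF10A and 75.5, 73.7 and 79.3 in MCF10Ca1a, and its reads may be split with the near-identical SAA2. The counts given to SAA2 were 2.56, 3.09 and 2.35 CPM in MCF10AT1, 25.4, 24.97 and 23.9 in MCF10A and 32.3, 31.1 and 28.8 in MCF10Ca1a. All 4 genes were apart below, and their log2 change to the nearer line ran from -1.74 (C3) to -3.21 (SAA2). At the low end, S100A7, or psoriasin, gave 0, 0.0302 and 0.0644 CPM in MCF10AT1, 0.250, 0.402 and 0.559 in MCF10A and 0.643, 0.386 and 0.705 in MCF10Ca1a. CXCL5, another neutrophil attractant, gave 0, 0.0151 and 0 CPM in MCF10AT1, 0.733, 0.695 and 0.716 in MCF10A and 0.587, 0.327 and 0.310 in MCF10Ca1a. TLR2 and LTB, named after their values were seen, were at or near 0 in MCF10AT1, with 0.374, 0.386 and 0.344 and 0.187, 0.294 and 0.272 CPM in MCF10A and 0.363, 0.327 and 0.395 and 0.307, 0.268 and 0.0846 in MCF10Ca1a.

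Of 22 immediate early genes, 14 rose and 5 fell against the mean of the others, with 7 apart above and 1 below in CPM and in TPM. With limma on log2(TPM + 1) 9 rose and 8 fell, so the lean in calls depends on the scale. FOS gave 286, 282 and 284 CPM in MCF10AT1, 164, 158 and 156 in MCF10A and 69.8, 70.3 and 72.3 in MCF10Ca1a. EGR1 gave 302, 294 and 306 CPM in MCF10AT1, 119, 105 and 111 in MCF10A and 145, 138 and 141 in MCF10Ca1a. KLF4, a zinc finger factor of epithelial cells, gave 30.1, 33.02 and 31.9 CPM in MCF10AT1, 12.5, 12.7 and 12.3 in MCF10A and 11.01, 11.8 and 11.9 in MCF10Ca1a. In all 3 the MCF10AT1 libraries stood above the others, with a log2 change of 1.42, 1.26 and 1.40 against the mean. IER5 was the member apart below, at 53.7, 53.4 and 49.98 CPM in MCF10AT1, 89.1, 77.3 and 74.9 in MCF10A and 77.7, 78.8 and 76.9 in MCF10Ca1a. The list was higher mainly against MCF10A (19 of 22 called) and split against MCF10Ca1a (9 called higher and 11 lower), beside 29.8% higher and 31.8% lower over all genes against MCF10A and 40.3% and 38% against MCF10Ca1a.

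Of 20 MAP kinase feedback and target genes, 11 rose and 8 fell (7 and 8 with limma on log2(TPM + 1)), with 7 apart above and 2 below. The median log2 change was 0.25 in CPM and -0.10 in TPM, so its sign depends on the scale. Relative to all genes it was 0.21 in CPM and 0.06 in TPM. DUSP6, the phosphatase that inactivates ERK, gave 286, 285 and 281 CPM in MCF10AT1, 145, 138 and 136 in MCF10A and 189.5, 193 and 194 in MCF10Ca1a. SPRY2 gave 43.6, 44.8 and 42.2 CPM in MCF10AT1, 25.5, 25.9 and 26.5 in MCF10A and 19.3, 19.7 and 18.2 in MCF10Ca1a. CCND1, cyclin D1, gave 305, 306 and 311 CPM in MCF10AT1, 229, 197 and 185 in MCF10A and 170.4, 171 and 173 in MCF10Ca1a. These 3 genes were apart above. DUSP1, a phosphatase induced by stress, was apart below, at 149, 153 and 149 CPM in MCF10AT1, 292, 268 and 268 in MCF10A and 265, 247 and 258 in MCF10Ca1a. EPHA4, an ephrin receptor at low level, gave 2.32, 2.20 and 2.34 CPM in MCF10AT1, 0.577, 0.371 and 0.530 in MCF10A and 0.559, 0.565 and 0.451 in MCF10Ca1a, and its call was lost on the scaled counts (log2 change 1.33) and with limma on log2(TPM + 1) without a filter (0.34). In TPM the EPHA4 values of the lines overlapped.

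The EGF family was divided by member. Of 15 genes, 6 rose and 6 fell, with 3 apart above and 3 below. AREG, amphiregulin, gave 1870.4, 1961 and 1865 CPM in MCF10AT1, 871, 921 and 946 in MCF10A and 355, 368 and 362 in MCF10Ca1a. EPGN, epigen, gave 280.2, 291 and 289 CPM in MCF10AT1, 141, 163 and 183 in MCF10A and 107, 105 and 104 in MCF10Ca1a. NRG1, neuregulin 1, gave 11.3, 11.2 and 12.6 CPM in MCF10AT1, 3.88, 3.54 and 3.44 in MCF10A and 1.96, 2.02 and 1.83 in MCF10Ca1a. The ligands apart below were EGF (0.195, 0.121 and 0.258 CPM in MCF10AT1, 0.281, 0.355 and 0.330 in MCF10A and 1.06, 0.921 and 0.818 in MCF10Ca1a), TGFA and BTC.

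The TGF-beta and BMP list was even. Of 25 tested, 12 rose and 9 fell, with 5 apart each way (20% above and 20% below). The ligands TGFB1 and INHBA rose and TGFB2 and BMP2 fell, none of them apart. BMP4, the ligand apart above, gave 1.95, 1.95 and 1.74 CPM in MCF10AT1, 0.780, 0.572 and 0.487 in MCF10A and 0.252, 0.446 and 0.282 in MCF10Ca1a. NOG, noggin, which binds BMP ligands and blocks them, gave 4.99, 5.13 and 5.43 CPM in MCF10AT1, 0.655, 0.742 and 0.573 in MCF10A and 0.615, 0.594 and 0.508 in MCF10Ca1a. Both were apart above. ID2 and ID3, transcription inhibitors known as BMP targets, went the other way: ID2 gave 0.660, 0.664 and 0.596 CPM in MCF10AT1, 3.46, 2.596 and 3.01 in MCF10A and 7.32, 6.93 and 7.14 in MCF10Ca1a. ID3 gave 18.1, 18.0 and 17.3 CPM in MCF10AT1, 74.9, 74.1 and 76.2 in MCF10A and 63.0, 59.4 and 65.7 in MCF10Ca1a. ID1 was also apart below, at 86.6, 94.4 and 86.7 CPM in MCF10AT1, 115, 116 and 118 in MCF10A and 211, 199 and 213 in MCF10Ca1a. NOG rose by 3.08 ± 0.11 and ID3 changed by -1.95 ± 0.0478 (log2, SE, against the mean of the others; edgeR, adjusted p = 3.45e-11 and 9.43e-13).

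p53 targets and inhibitors of the cell cycle followed. Of 20 p53 targets, 15 rose and 3 fell, with 7 apart above and 2 below and a median log2 change of 0.48. Against MCF10A 9 were called higher and 6 lower (median log2 change 0.08), and against MCF10Ca1a 15 higher and 4 lower (0.75). CDKN1A, the p21 inhibitor of cyclin-dependent kinases, gave 365, 367 and 348 CPM in MCF10AT1, 167, 154 and 148 in MCF10A and 141, 138 and 143 in MCF10Ca1a. MDM2, the ligase that degrades p53, gave 222, 221 and 216 CPM in MCF10AT1, 169, 176 and 180.0 in MCF10A and 143, 143 and 138 in MCF10Ca1a. BAX, a death effector, gave 86.4, 82.3 and 80.3 CPM in MCF10AT1, 57.7, 51.0 and 52.4 in MCF10A and 57.7, 54.5 and 58.1 in MCF10Ca1a. All 3 were apart above. SESN2, a stress sestrin, was apart below at 16.8, 15.7 and 17.4 CPM in MCF10AT1, 21.3, 18.6 and 19.2 in MCF10A and 53.01, 46.3 and 50.1 in MCF10Ca1a. CDKN1C, the p57 inhibitor, was apart below at 0.435, 0.317 and 0.322 CPM in MCF10AT1, 1.15, 1.07 and 0.917 in MCF10A and 1.56, 1.81 and 1.58 in MCF10Ca1a, and over the 9 cyclin-dependent kinase inhibitor and RB family genes tested 4 rose and 3 fell (3 and 5 with limma on log2(TPM + 1)). Of 25 DNA replication genes, 23 rose and none fell against the mean, but against MCF10A 4 were called higher and 12 lower (median log2 change -0.14), and against MCF10Ca1a 24 higher and none lower (1.16). The 4 higher than MCF10A were apart above (16%), among them PCNA at 313, 329 and 333 CPM in MCF10AT1, 238, 262 and 286 in MCF10A and 78.5, 82.4 and 82.0 in MCF10Ca1a.

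**Figure D4:**
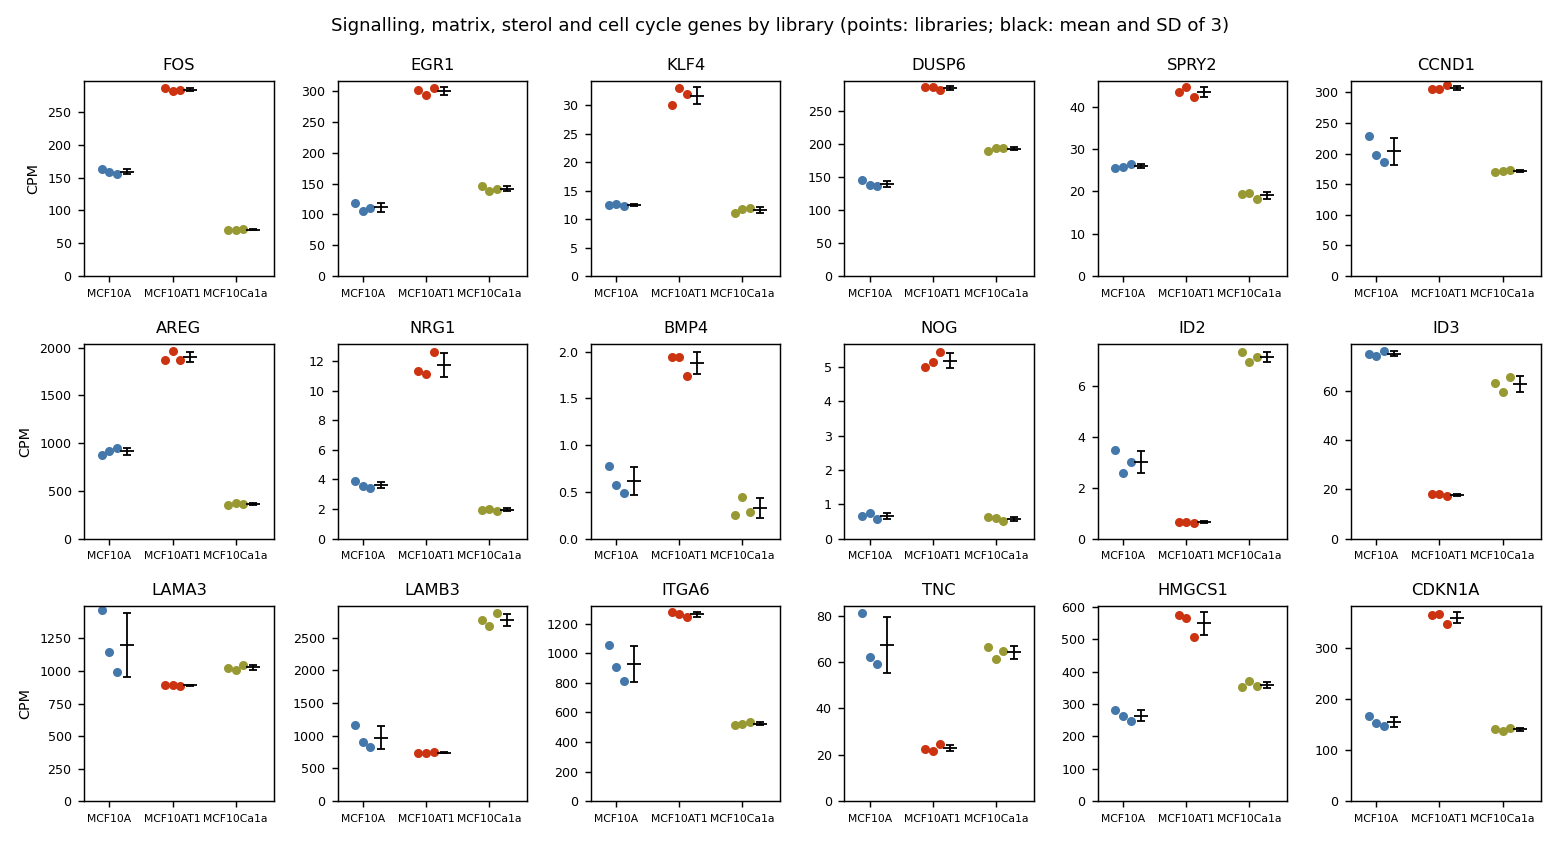
Points give CPM in each library (linear axis from 0) for 18 genes of signalling, matrix, sterol and cell cycle lists, and the black marks give the mean and SD of 3 libraries. In FOS, EGR1, KLF4, NOG and CDKN1A the MCF10AT1 points stand above both other lines, and in ID2, ID3 and TNC below both.

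Sterol synthesis and uptake had the largest share of members apart above among the functional lists in CPM (45.8%), but not in TPM. Of 24 tested, 13 rose and 8 fell against the mean, and 11 were apart above and 1 below. On the TPM scale 5 were apart above and 2 below, with a median log2 change of 0.01, or 0.17 relative to all genes, while 7 of 22 immediate early genes and 6 of 20 p53 targets were apart above. HMGCS1, an early enzyme of the mevalonate pathway, gave 575, 566 and 508 CPM in MCF10AT1, 281, 264 and 248 in MCF10A and 354, 370.0 and 356 in MCF10Ca1a. INSIG1, a sterol-regulated brake on the pathway, gave 307, 315 and 302 CPM in MCF10AT1, 80.7, 75.3 and 75.2 in MCF10A and 260.4, 262 and 259 in MCF10Ca1a. Both were apart above in CPM, INSIG1 far from MCF10A and close to MCF10Ca1a. In TPM INSIG1 lay between the lines, with a mean of 209.7 in MCF10AT1, 58.3 in MCF10A and 219 in MCF10Ca1a. Serum, a source of lipoprotein cholesterol, was 2.5% in MCF10AT1 and 5% in the others, and its part in these values was not tested. The letters TCACNCCAC, on either strand, were in 1 of 18 promoters of the sterol list (5.56%) and in none of the 8 of its genes apart above. Over the promoters of genes tested the share was 1.09%, and over all promoters 1.15%.

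Laminin and hemidesmosome genes fell more often than they rose. Of 13 tested, 8 fell and 4 rose, with 6 apart below and 2 above. LAMB3 and LAMA3, chains of the laminin-332 that anchors epithelium to the basement membrane, were both apart below. LAMB3 gave 734, 738 and 750.3 CPM in MCF10AT1, 1168, 907 and 833 in MCF10A and 2768, 2686 and 2876 in MCF10Ca1a. LAMA3 gave 891, 893 and 883 CPM in MCF10AT1, 1468, 1142 and 992 in MCF10A and 1026, 1009 and 1046 in MCF10Ca1a. The nearer line was MCF10A for LAMB3 (log2 change -0.39) and MCF10Ca1a for LAMA3, a difference that was not called (log2 change -0.21, edgeR, adjusted p = 0.0851). ITGA6, the laminin-binding integrin chain, was apart above at 1277, 1267 and 1245 CPM in MCF10AT1, 1056, 910.1 and 811 in MCF10A and 516, 522 and 535 in MCF10Ca1a.

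Mesenchymal genes rose more often than they fell against the mean (14 and 8 of 23), but 7 were apart below and 3 above. SPARC, a matrix glycoprotein, gave 0.765, 0.649 and 0.918 CPM in MCF10AT1, 63.0, 57.8 and 54.5 in MCF10A and 4.92, 4.73 and 5.78 in MCF10Ca1a. TNC, tenascin C, gave 22.5, 21.8 and 24.5 CPM in MCF10AT1, 81.1, 62.1 and 59.0 in MCF10A and 66.7, 61.3 and 64.6 in MCF10Ca1a. Both were apart below. TWIST1, a transcription factor of mesenchyme, was apart above at 14.98, 16.1 and 14.97 CPM in MCF10AT1, 11.3, 10.9 and 10.7 in MCF10A and 3.16, 2.76 and 2.54 in MCF10Ca1a. That put TWIST1 nearer to MCF10A. Among the fibroblast markers DCN, decorin, was apart above at 30.2, 31.3 and 30.5 CPM in MCF10AT1, 3.91, 4.57 and 4.76 in MCF10A and 0.224, 0.0297 and 0.254 in MCF10Ca1a. COL1A1, a fibrillar collagen, was apart below at 3.04, 3.20 and 3.67 CPM in MCF10AT1, 10.0, 8.28 and 9.20 in MCF10A and 4.81, 5.02 and 5.50 in MCF10Ca1a. The fibroblast markers summed to 77.7 to 81.7 CPM in MCF10AT1, 81.5 to 83.0 in MCF10A and 29.2 to 30.0 in MCF10Ca1a, and the part of such cells in these values was not tested.

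Of 25 matrix protease and inhibitor genes, 10 rose and 10 fell, with 5 apart each way in CPM, 3 above and 8 below in TPM, and 7 above and 4 below on thinned counts. PLAU, urokinase, gave 31.1, 30.6 and 27.8 CPM in MCF10AT1, 238, 220.0 and 198 in MCF10A and 84.3, 87.5 and 92.2 in MCF10Ca1a. MMP9, a gelatinase, was near the floor in MCF10AT1 (0.0150, 0.0151 and 0 CPM) and low in MCF10Ca1a (0.0838, 0.0892 and 0.113), against 17.0, 14.1 and 13.4 in MCF10A. ADAMTS1, a secreted protease, was apart above at 3.10, 3.24 and 3.59 CPM in MCF10AT1, 1.82, 1.47 and 1.19 in MCF10A and 0.531, 0.416 and 0.423 in MCF10Ca1a.

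Keratins and junction genes were mixed. Of 20 keratins, 12 rose and 7 fell, with 4 apart above and 2 below. KRT5, the basal keratin, gave 3440.3, 3312 and 3052 CPM in MCF10AT1, 2861, 2457 and 2325 in MCF10A and 674, 675 and 709.5 in MCF10Ca1a. KRT6A gave 2777, 2727 and 2519 CPM in MCF10AT1, 1958, 1658 and 1557 in MCF10A and 374, 358 and 385 in MCF10Ca1a, where reads may be split with KRT6B and KRT6C. KRT13 and KRT75 were apart below, with few counts in MCF10AT1. KRT13 gave 0.0300, 0.0905 and 0.0483 CPM in MCF10AT1, 1.72, 1.11 and 1.36 in MCF10A and 4.64, 4.46 and 5.05 in MCF10Ca1a. KRT75 gave 0, 0 and 0.0322 CPM in MCF10AT1, 0.468, 0.386 and 0.415 in MCF10A and 0.559, 0.535 and 0.564 in MCF10Ca1a.

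Of 31 epithelial junction genes, 11 rose and 12 fell (8 and 17 with limma on log2(TPM + 1)), with 5 apart each way in CPM and 3 above and 7 below in TPM. GRHL2, an epithelial transcription factor, had no count in MCF10A, 14.6, 14.9 and 15.1 CPM in MCF10Ca1a and 27.1, 27.0 and 27.6 in MCF10AT1, at least 601-fold higher than in MCF10A. F11R, a tight junction protein, was apart below at 126, 122 and 114 CPM in MCF10AT1, 243, 215 and 192 in MCF10A and 361, 357 and 366 in MCF10Ca1a. Of 18 squamous differentiation genes, 7 rose (2 or 3 with limma on TPM) and 9 fell, with 4 apart below, among them TGM5, a transglutaminase, at 0.195, 0.226 and 0.193 CPM in MCF10AT1, 1.03, 1.13 and 1.003 in MCF10A and 15.7, 15.7 and 14.9 in MCF10Ca1a. CNFN was the 1 apart above, and its small rise (log2 change 0.48) lost the call under 9 alternatives. Among them were DESeq2 (adjusted p = 0.114) and the runs without MCF10A replicate 2, MCF10Ca1a replicate 2 or any 1 MCF10AT1 library. CNFN was called against neither line alone (edgeR, adjusted p = 0.0735 against MCF10A and 0.0555 against MCF10Ca1a). Of 12 luminal genes, 5 rose and 5 fell (2 and 5 with limma on TPM), with 3 apart above and 1 below in CPM and 2 above and 3 below in TPM. AGR2, a secretory pathway disulfide isomerase, was apart above at 2.71, 2.596 and 3.09 CPM in MCF10AT1, 0.327, 0.355 and 0.372 in MCF10A and 0.782, 0.713 and 0.818 in MCF10Ca1a. XBP1 was apart below, with a mean of 64.6 CPM in MCF10AT1, 81.2 in MCF10A and 116 in MCF10Ca1a.

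YAP target genes were divided, with 9 of 21 higher and 10 lower, and 5 apart above and 6 below. CCN2, a matricellular growth factor, gave 62.7, 64.5 and 63.1 CPM in MCF10AT1, 26.2, 23.8 and 24.3 in MCF10A and 13.6, 13.7 and 13.7 in MCF10Ca1a. AXL, a receptor tyrosine kinase, gave 169.8, 167 and 159 CPM in MCF10AT1, 66.4, 56.7 and 50.1 in MCF10A and 67.8, 66.2 and 72.7 in MCF10Ca1a. Both were apart above. NUAK2, a kinase, was apart below at 1.60, 1.33 and 1.39 CPM in MCF10AT1, 14.97, 13.0 and 13.0 in MCF10A and 3.44, 3.09 and 2.79 in MCF10Ca1a. Among serum response genes of actin, 7 of 22 rose and 9 fell (4 and 11 with limma on log2(TPM + 1)), with CNN3, a calponin, apart above at 252, 252 and 250.1 CPM in MCF10AT1, 81.5, 88.0 and 96.0 in MCF10A and 136, 136 and 133 in MCF10Ca1a. SRF, the factor that drives them, was apart below at 39.5, 38.7 and 40.5 CPM in MCF10AT1, 53.5, 46.9 and 44.4 in MCF10A and 58.8, 53.2 and 61.4 in MCF10Ca1a.

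Of 18 Notch genes, 7 rose and 3 fell, with 3 apart above (16.7%) and 2 below (11.1%), near the shares over all genes. In TPM there were 2 each way and on thinned counts 1 each way, and the genes that rose and fell numbered 2 and 5 with limma on log2(TPM + 1). Among those apart below in CPM was the target HEY1 at 0.405, 0.634 and 0.628 CPM in MCF10AT1, 1.73, 1.90 and 2.03 in MCF10A and 1.62, 1.37 and 1.33 in MCF10Ca1a. Of 28 WNT genes, 15 rose and 5 fell, with 5 apart above (17.9%), among them the receptor FZD10 at 1.06, 0.981 and 0.886 CPM in MCF10AT1, 0.359, 0.355 and 0.244 in MCF10A and 0, 0.0297 and 0 in MCF10Ca1a, and 1 below (3.57%), WNT7A.

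Metabolic and stress lists were mixed as well. Of 32 glycolysis and hypoxia genes, 12 rose and 14 fell (7 and 19 with limma on log2(TPM + 1)), with 2 apart above (6.25%) and 6 below (18.8%). SLC2A3, a glucose transporter, gave 3.67, 3.73 and 3.63 CPM in MCF10AT1, 0.858, 0.633 and 0.616 in MCF10A and 0, 0 and 0.0282 in MCF10Ca1a. CA9, a carbonic anhydrase induced in hypoxia, gave 0.780, 0.739 and 0.709 CPM in MCF10AT1, 2.79, 2.33 and 2.15 in MCF10A and 5.62, 5.11 and 5.64 in MCF10Ca1a. These 2 genes were apart in opposite directions. Of 26 NRF2 targets, 6 rose (1 or 2 with limma on TPM) and 17 fell, with 2 apart above and 6 below, and TXN, thioredoxin, was among those above at 665, 695 and 754 CPM in MCF10AT1, 286, 342 and 389 in MCF10A and 379, 389 and 392 in MCF10Ca1a. Of 30 amino acid stress genes of ATF4, 11 rose and 14 fell (7 and 17 on that scale), with 5 apart above and 4 below. Of 17 fatty acid synthesis genes, 9 rose and 5 fell, with ACSL3, an acyl-CoA synthetase, alone apart above.

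The share of genes apart differed by chromosome. On chromosome 9, 247 of 694 genes tested were apart above (35.6%) and 22 below (3.17%). On chromosome 1 the balance was the opposite, with 155 of 1775 above (8.73%) and 494 below (27.8%). The genes below on chromosome 1 were most frequent from 140 Mb onward, where between 34.6% and 46.7% of the genes of each 20-Mb bin were apart below. On chromosome 9 the share above was 16.4% in the first 20 Mb and 29.4% to 45.2% in the later bins, of which that from 40 to 60 Mb held only 17 genes. Chromosomes 16, 17 and 20 also leaned below, with 18.7%, 20.2% and 20.0% of genes apart below. The median log2 change against the mean of the others was 0.35 on chromosome 9 and -0.29 on chromosome 1. The autosomal and X genes with a position numbered 17164.

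**Figure D5:**
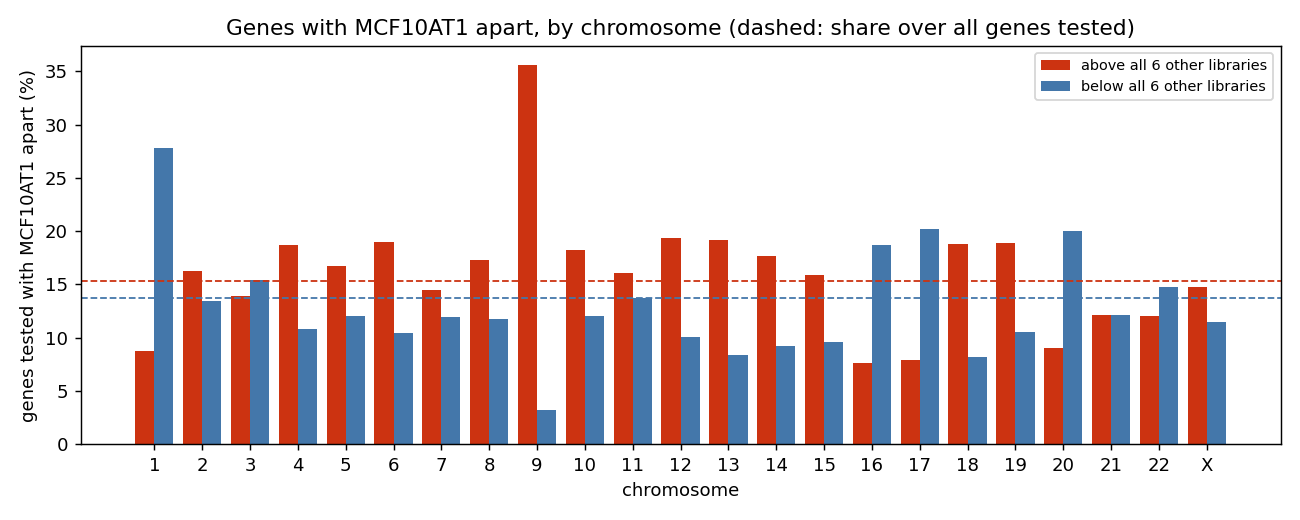
Bars give the percentage of genes tested on each chromosome with MCF10AT1 above (red) or below (blue) all 6 other libraries, with dashed lines at the shares over all genes tested (15.3% and 13.7%). Chromosome 9 stands out above (35.6%) and chromosome 1 below (27.8%).

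The share apart also varied by gene class. Of 13726 protein-coding genes tested, 16.9% were apart above and 15.8% below. Of 1072 pseudogenes it was 8.12% and 3.92%, and of 2370 noncoding and other genes 11.6% and 8.52%.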

How the data were processed

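RNA of 9 libraries, 3 per cell line, was read into gene tables by the authors with Salmon against hg38, per the submitters' processing notes; the versions and the annotation release are not given in the sources used here. The authors deposited estimated counts per gene, the same scaled and length-scaled, and TPM per gene, per the file headers. Tables per transcript were not used here.

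These deposited estimated counts, once rounded, passed through filterByExpr with the lines as groups, at a minimum count of 10 and a minimum total of 15, and 17910 of 62666 genes remained. All 9 libraries entered 1 fit with TMM normalisation and edgeR's quasi-likelihood test (edgeR 4.0.16, R 4.3.3), at 0.05 after Benjamini-Hochberg adjustment across the whole set, with no covariate. CPM values rest on TMM-scaled totals. The deposited TPM values served for limma 3.58.1 on log2(TPM + 1), an alternative, as did DESeq2 1.42.0. Positions came from GENCODE 29 (92.9% of genes matched) and promoters from RefSeq, which held 11970 of the genes tested. No column was without a sample.

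The members, the lists and the rule for named genes were chosen with earlier results of these data known. Named were the 8 genes above and 8 below with the largest change to the nearer line (called in each comparison, mean of at least 100 counts). Also named were the 3 best counted genes detected and undetected in MCF10AT1 alone, and in each list the furthest apart member each way. The genes at the border of the rule and HRAS were named too. Genes without a symbol of their own were left out of these choices. Other genes named with values from the lists and their neighbourhoods were picked after their values were seen: those of the immune, signalling, sterol, cell cycle, matrix and keratin paragraphs that are not the furthest member of their list, PTPRG, IL1R2, HOXA11-AS, HOXB4, BISPR, UBE3A, NDN and MAGEL2. The values of some list members are not reported here.

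No 2 libraries of a line were alike within sampling noise (chi-square per degree of freedom 2.51 to 74.8). On simulated counts for 17910 genes with 200 changed in this contrast, edgeR recovered 195 (45 of 50 changed by 1.5-fold and all 150 larger ones), with 9 false calls, and DESeq2 192, with 20 false calls. Alternatives were another normalisation, filter, test, count table, scale and floor, thinned counts, a replicate block, a minimum fold change and each library left out in turn.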

Additional observations from a re-analysis of the deposited data

How the results depend on the processing

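The count of 12307 genes called against the mean of the other lines fell to 1902 (1140 higher and 762 lower) when glmTreat asked for a log2 change over 1, and was 10039 to 12937 under the other tests, scales, filters and tables; leaving out each library gave 11456 to 12778. Genes apart numbered 4747 to 5677 under these settings and 5403 to 5935 with a library left out, where fewer values must be cleared. Without the filter on low counts 3354 were apart above and 2323 below, and 7684 were called higher and 5253 lower. On the TPM scale 5031 genes were apart, with most of them below; the cause of that turn was not tested. Of the 5206 genes apart, 83.7% to 99.8% stayed apart under the settings on counts (this overlap was not computed for TPM). Genes apart and at least 2-fold from both lines numbered 806 (counts thinned to the smallest library) to 1378 (no filter), and 1039 to 1086 with a library left out. Genes detected or undetected in MCF10AT1 alone fell from 66 to 27 (21 and 6) with a floor of 1 count, to 48 on thinned and on scaled counts, and ran from 70 to 81 with a library left out. With the replicate number as a block, 12146 genes were called and 979 were apart and at least 2-fold from both lines. Same-numbered libraries did not deviate together over all genes (correlations of -0.0597 to 0.0451). Whether they shared a culture or a preparation is not given in the labels. The minimum fold change of glmTreat was not applied to single genes or lists, so the 19 alternatives for genes leave it out. Of 132 genes with a test, chosen by the naming rules or after their values were seen, 123 kept direction and call under all of these that were run. None changed direction, and HARBI1, HRAS, LDAH and PTPRG also lost the call under 1 or more.
Most counts of the functional lists stayed within 1.5 times of those given, and most of those that did not moved with limma on TPM (3 settings). The genes that rose numbered 9 of the immediate early list in place of 14, 7 in place of 11 for MAP kinase, 6 or 7 in place of 11 for HOX, 6 or 7 in place of 12 for glycolysis and hypoxia, 3 or 4 in place of 7 for serum response and 2 in place of 4 for laminin and hemidesmosome genes. For the list of ATF4 their number went down from 11 to as few as 6, for luminal genes from 5 to 2, for junction genes from 11 to 7, for DNA replication from 23 to 15, for cytokines from 5 to 3 and for interferon-stimulated genes from 3 to 1 (also 1 with DESeq2, on thinned counts and without MCF10AT1 replicate 2). The genes that fell reached 9 in place of 5 for immediate early genes and 5 in place of 3 for cyclin-dependent kinase inhibitors. For sterol genes they were 5 in place of 8 without MCF10AT1 replicate 2 or 3, for matrix proteases 6 in place of 10 on scaled counts, for luminal genes 3 in place of 5 without the filter, and for DNA replication 1 in place of 0 under 5 alternatives. The Notch genes that rose were 2 or 3 in place of 7 in TPM, 4 on scaled and 3 on thinned counts. The cause was not tested.
Folds of genes near the floor are limited by depth, which was lowest in MCF10Ca1a.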
